A study of Rattus norvegicus with 2 samples.

Results

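The genes described here build and fold proteins of the endoplasmic reticulum (ER), and were chosen by name, as a list of 49 genes that covers signal recognition, the translocon, signal peptidase, oligosaccharyl transferase, folding, degradation of misfolded proteins and the stress response. A probe set, which is a group of probes designed to read the transcripts of a gene, belonged to the list when its array annotation named a listed gene. This gave 111 of 54613 probe sets and 48 of the 49 genes, and SEC61G was named by no probe set in that annotation. Total RNA of 1 sample of control cells and 1 sample of sorted cells had been hybridised to 1 Affymetrix array each. Both samples are labelled rat myeloma cells without treatment and were grown in conventional culture. They are YB2/0 cells, a rat myeloma line, and the control cells carried no inserted cDNA. The sorted cells came from YB2/0 cells that carried a retroviral cDNA library of human umbilical vein endothelial cells. They had been sorted for binding of patient IgG. The study speaks of cloned cells on the array, made by limiting dilution, where the label says sorted. The labels do not say whether a clone was measured, or which one. The study made the comparison to look at the human cDNA carried by these cells.

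Proteins bound for secretion or for the cell surface enter the ER as they are made. The signal recognition particle binds their signal peptide and brings the ribosome to its receptor, the Sec61 channel passes the chain through the membrane, signal peptidase cuts off the signal peptide, and oligosaccharyl transferase attaches sugar chains. Chaperones such as the HSPA5 product BiP then help folding, misfolded chains are sent back for degradation, and an overload switches on the unfolded protein response. Plasma cells, from which myeloma arises, are known for a large ER that handles antibody.

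The array probes are named by human genes while the cells are from rat, so a rat transcript is read only as far as it binds a human probe. Each probe set has a MAS5 signal, an intensity on a linear scale that the authors scaled per array, and a call that grades detection as Present, Marginal or Absent. Since each condition was measured on 1 array, replicate error is unknown and no difference between conditions was tested. Values are therefore given as both signals and as a log2 ratio, which is the sorted signal over the control signal. As gauges of spread, 18 probe sets of the hybridisation spikes, added in fixed amounts, had log2 ratios with an SD of 0.33. In 243 genes with more than 1 probe set Present on both arrays, the log2 ratios of probe sets of the same gene had an SD of 0.52. A probe set counted as higher when its sorted signal was Present and at least 2-fold above the control signal, and as lower when its control signal was Present and at least 2-fold above the sorted one. Less RNA per cell cannot be told apart from fewer cells with that RNA, because whole samples were measured.

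Part of the list shares a regulatory sequence in the rat genome, which is shown here because it is a known binding site for factors of the ER stress response. RefSeq promoter sequences, from 250 bases before to 50 bases after the annotated start site in build GRCr8, matched 44 of the 49 genes by symbol, and SRP54, SEC61A1, PDIA3, PDIA6 and MANF had no entry. Searched on both strands, the ER stress response element (ERSE), spelled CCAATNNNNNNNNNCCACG, was found in 7 of these promoters (15.9%) and in 22 of 33469 promoters of the whole table (0.0657%). The shorter ERSE-II, spelled ATTGGNCCACG, was found in 2 of the 44 (4.55%) and in 17 promoters of the table (0.0508%). Both elements end in CCACG, and no listed promoter held both. ERSE was in Hspa5, Hsp90b1, Calr, Canx, Dnajc3 and Creld2 of the folding group and in Xbp1, and ERSE-II was in Dnajb11 of the folding group and in Herpud1. None of the promoters of signal recognition, translocon, signal peptidase or oligosaccharyl transferase genes held either sequence, of 7, 8, 5 and 7 promoters. These are matches of letters. The elements are known from genes of the ER stress response, which the list holds by choice. The higher shares in the list are therefore no test, and describe the genes and not the samples.

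The stretches below are from members that hold an element, leaving out Dnajb11, Dnajc3 and Creld2. They are printed 5′ to 3′ on the strand of the gene, with the element in capitals. They lie in GRCr8 at chr3:38452943-38453011, plus strand (Hspa5), chr7:23012327-23012499, minus strand (Hsp90b1), chr19:40213117-40213173, plus strand (Calr), chr10:35158049-35158107, minus strand (Canx), chr14:84604528-84604596, plus strand (Xbp1) and chr19:10614801-10614861, minus strand (Herpud1), all before the annotated start site. In Calr and in the second element of Hsp90b1 the match is on the other strand and reads from CGTGG to ATTGG.
Hspa5: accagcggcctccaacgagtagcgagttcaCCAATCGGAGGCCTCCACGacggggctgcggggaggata
Hsp90b1: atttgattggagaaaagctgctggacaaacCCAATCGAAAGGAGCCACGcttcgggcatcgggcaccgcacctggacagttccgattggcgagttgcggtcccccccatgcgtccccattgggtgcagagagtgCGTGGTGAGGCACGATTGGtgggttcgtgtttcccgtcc
Calr: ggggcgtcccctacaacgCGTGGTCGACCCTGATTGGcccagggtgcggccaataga
Canx: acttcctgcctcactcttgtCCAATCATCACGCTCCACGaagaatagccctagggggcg
Xbp1: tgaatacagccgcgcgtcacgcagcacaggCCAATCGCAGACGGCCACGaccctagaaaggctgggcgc
Herpud1: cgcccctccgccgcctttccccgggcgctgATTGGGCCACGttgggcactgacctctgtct

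**Figure D1:**
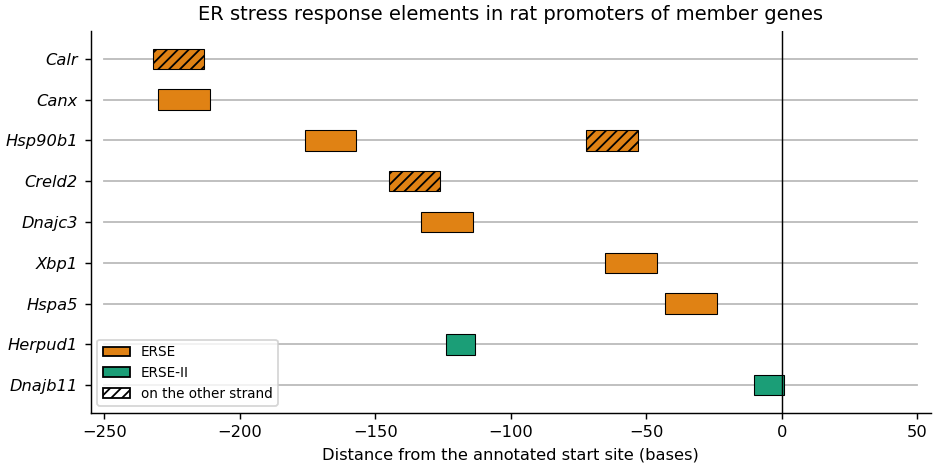
Position of ERSE (orange) and ERSE-II (green) in the 9 rat promoters of the list that hold one, in bases from the annotated start site, with hatching for matches on the other strand. Hsp90b1 holds 2 ERSE matches, from -176 to -158 and from -72 to -54, and the match in Hspa5 lies from -43 to -25.

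The list was detected more often than the array as a whole. In control cells 28 of its 111 probe sets were Present (25.2%) and in sorted cells 26 (23.4%), against 8.93% and 8.24% of all 54613 probe sets. Of the 33 probe sets Present on at least 1 array, 21 were Present on both (63.6%), against 37.5% over the whole array. By role, 5 of 11 signal peptidase probe sets were Present in each sample, and 5 of 10 oligosaccharyl transferase probe sets in control cells and 6 in sorted cells. In the folding group 10 of 37 were Present in each sample, in the translocon group 6 and 4 of 26, and in signal recognition 2 and 1 of 16. None of the 7 probe sets for degradation and none of the 4 for the stress response was Present in either sample. In all, 16 genes had a probe set Present on both arrays, 9 had one Present on 1 array, and 23 had none.

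**Figure D2:**
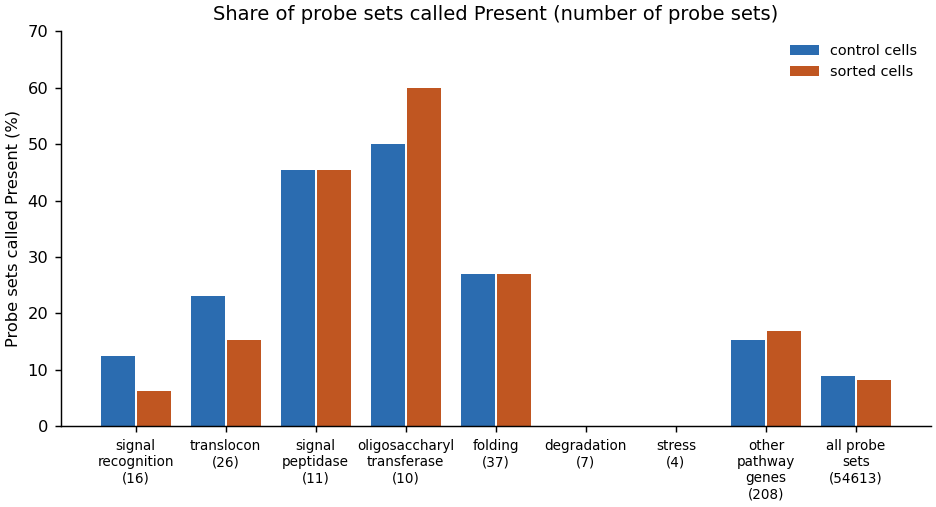
Share of probe sets called Present (vertical axis, %) in control cells (blue) and sorted cells (orange) for each role, for the list of other ER genes and for all probe sets, with the number of probe sets in brackets. Signal peptidase (45.5% in both samples) and oligosaccharyl transferase (5 and 6 of 10 probe sets) stand above the 8.93% and 8.24% of all probe sets, and degradation and stress are at 0.

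The 2-fold rule called 8 of the 111 probe sets higher (7.21%) and 3 lower (2.70%) in the sorted cells. Over all 54613 probe sets the same rule called 1.61% higher and 1.77% lower, and over those Present on at least 1 array 12.9% higher and 14.1% lower. Of the 33 listed probe sets Present on at least 1 array, 24.2% were higher and 9.09% were lower. Without SPCS1, which was known from earlier results of these data, 21.9% of 32 were higher. Of the 8, however, 5 lay no higher than 1.09 on the log2 scale. When the log2 ratios were centred on the probe sets Present on both arrays, a shift of 0.11, these 5 fell under 2-fold and 3 higher stood beside 3 lower. Among the 21 probe sets Present on both arrays, the median log2 ratio was 0.059, against 0.11 over the 2556 such probe sets of the array, and 17 differed by less than 2-fold (81.0%, against 89.5%). The listed median became -0.051 with centring and -0.073 with quantile normalization, so it has no settled sign.

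**Figure D3:**
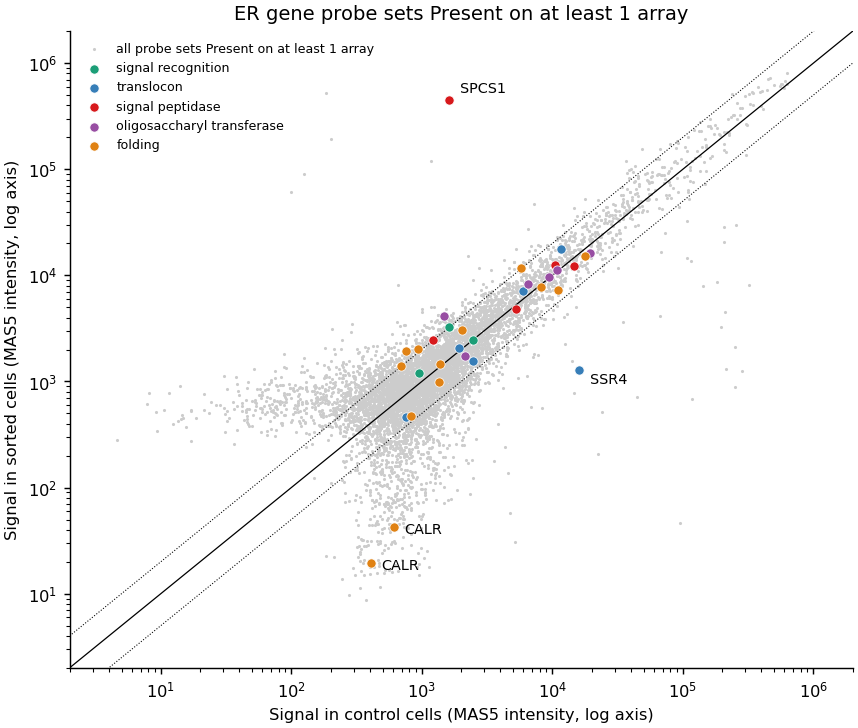
Sorted signal (vertical) against control signal (horizontal), in MAS5 intensity on log axes, for the 33 listed probe sets that either array called Present, coloured by role, over all 6821 such probe sets in grey. Points on the solid line have equal signals and the dotted lines lie 2-fold away. SPCS1 lies at 1608 and 450558, SSR4 at 15930 and 1286, and both CALR probe sets lie far below the lines.

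Signal peptidase is the group with the largest single difference, at SPCS1, which was known from earlier results of these data when the list was chosen. SPCS1, a small subunit of the complex, is read by 217927_at alone. It gave a signal of 1608 in control cells and of 450558 in sorted cells, Present in both (detection p-values 0.00415 and 0.000244), which is a log2 ratio of 8.13. This was the highest of the 2556 probe sets Present on both arrays, and the next one had 2.77. That filter leaves out probe sets not Present in control cells. Over all 54613 probe sets, whatever their calls, SPCS1 held place 5 by log2 ratio. The other detected subunits lay between -0.27 and 1.01. SPCS2, which sits beside SPCS1 in the complex, had 10475 and 12568 at 201239_s_at, a log2 ratio of 0.26. At 201240_s_at it had 1221 and 2452, a log2 ratio of 1.01, so these probe sets differ by 0.74 and only the second passed the rule. The catalytic subunits are SEC11A and SEC11C. SEC11A had 14699 and 12184 at 216274_s_at (-0.27) and SEC11C had 5237 and 4841 at 223299_at (-0.11), all Present. SPCS3, the third accessory subunit, was Absent at its 3 probe sets, with signals of up to 2930 in control cells and 2707 in sorted cells. The difference at SPCS1 was thus not shared by the other subunits that were detected. It rests on 1 probe set, and whether it read a rat or a human transcript was not tested.

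The translocon group held the member with the largest lower limit of a decrease. SSR4, a subunit of the translocon-associated protein complex that binds signal peptides of some chains, had 15930 in control cells (Present) and 1286 in sorted cells (Absent) at its only probe set, 201004_at. The log2 ratio was -3.63, which is at least 12.4-fold lower when an Absent signal counts at no less than the dimmest Present signal of its array. It held place 123 from the bottom among the 4875 probe sets Present in control cells. Its partner SSR3 did not move with it. SSR3 had 1932 and 2049 at 222411_s_at (0.085), Present in both samples. SSR1 and SSR2 were never Present, and a SSR1 probe set that was Marginal in control cells, 200891_s_at, had 349 and 57.1. The channel itself was read through SEC61B, a small subunit, with 11577 and 17645 at 203133_at (0.61), the highest log2 ratio in this group among probe sets Present on both arrays. SEC61A1, which forms the pore, was Absent at both probe sets, with log2 ratios of 3.07 and -2.13 that point in opposite directions. SEC62, which helps chains that arrive after synthesis, had 6003 and 7068 at 208942_s_at (0.24) and 2468 and 1543 at 208943_s_at (-0.68). SEC63, its partner, had 755 (Present) and 459 (Absent) at 201914_s_at, a log2 ratio of -0.72. None of these passed the 2-fold rule, and the probe sets of SEC62 differed from each other by 0.91.

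Signal recognition was the least detected of the groups with any Present call. Of the particle's protein subunits, only SRP72 was Present, at 208803_s_at in sorted cells. It had 1615 in control cells (Marginal) and 3290 in sorted cells, a log2 ratio of 1.03, while its other 5 probe sets were Absent and ran from -5.76 to 1.32. SRP9, SRP14, SRP19, SRP54 and SRP68 were never Present, with signals between 12.1 and 814 in control cells and between 29.3 and 732 in sorted cells. The receptor that takes over the ribosome at the membrane showed no 2-fold difference. SRPRA had 2465 (Present) and 2458 (Absent) at 200917_s_at, a log2 ratio of -0.0042, which shows that a call can change while the signal hardly does. SRPRB had 959 (Present) and 1215 (Marginal) at 222532_at (0.34).

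Oligosaccharyl transferase differed by less than 2-fold at all 5 probe sets Present on both arrays. RPN2, a subunit near the channel, was Present at all 3 probe sets on both arrays. The signals were 19516 and 16219 at 208689_s_at (-0.27), 9465 and 9669 at 213399_x_at (0.031), and 10838 and 11291 at 213491_x_at (0.059). These log2 ratios span 0.33, the closest set of probe sets Present on both arrays that a listed gene had. DDOST, a further subunit, had 6508 and 8257 at 208675_s_at (0.34), and DAD1, whose loss is known to lead to apoptosis, had 2126 and 1749 at 200046_at (-0.28). STT3A, the catalytic subunit that acts during translocation, was the exception. It had 1471 (Absent) and 4117 (Present) at 202223_at, a log2 ratio of 1.48, or at least 2.80-fold higher. STT3B, the other catalytic subunit, was Absent in both samples at 1293 and 1026 (-0.33). RPN1 was Absent at 632 and Marginal at 648 (0.036), and OSTC was Absent at 1430 and 1232 (-0.21).

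**Figure D4:**
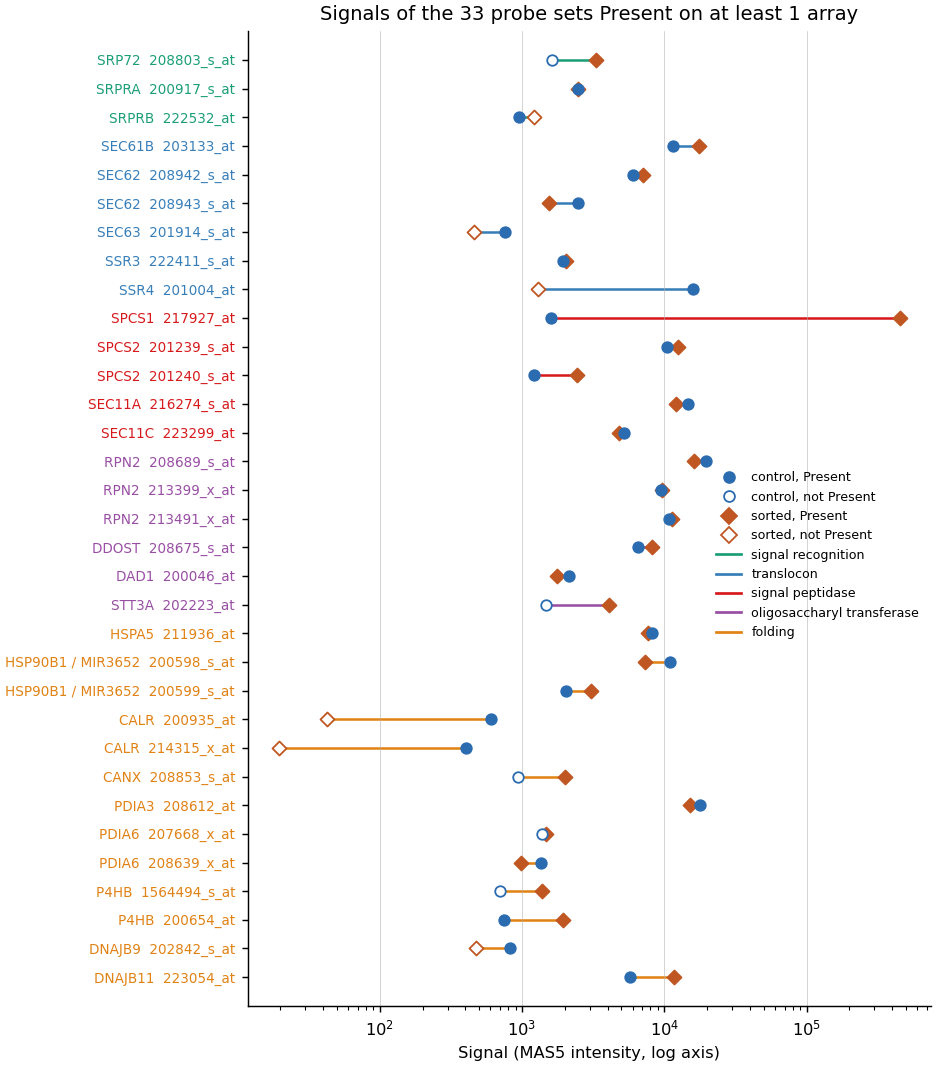
Signals of the 33 listed probe sets Present on at least 1 array (MAS5 intensity, log axis) in control cells (blue circles) and sorted cells (orange diamonds), filled where Present and open where Marginal or Absent, with line and label colours for the role. Most pairs lie close together, while SPCS1 runs from 1608 to 450558 and SSR4 and the CALR probe sets run the other way.

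Among folding genes HSPA5, HSP90B1, PDIA3 and PDIA6 lay within 2-fold where detected, and the members called by the rule went both ways. HSPA5, the Hsp70 chaperone of the ER whose promoter is printed above, had 8227 and 7689 at 211936_at, a log2 ratio of -0.098, Present in both samples. Probe sets 200598_s_at and 200599_s_at are annotated to HSP90B1, the Hsp90 chaperone of the ER, together with MIR3652. They had 11054 and 7351 (-0.59) and 2023 and 3033 (0.58), all Present, so they moved apart by 1.17 with no 2-fold difference in either. PDIA3, a disulfide isomerase that works with calnexin and calreticulin on glycoproteins, had 17898 and 15066 at 208612_at (-0.25). PDIA6, a related isomerase, had 1349 and 986 at 208639_x_at (-0.45), Present in both, and 1384 (Absent) and 1471 (Present) at 207668_x_at (0.088). For these genes the difference between samples was no larger than the difference between probe sets of HSP90B1.

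P4HB, the classical protein disulfide isomerase, was higher at 2 of its 3 probe sets. It had 752 and 1947 at 200654_at (1.37), Present in both samples with a detection p-value of 0.0461 each, and 695 (Absent) and 1390 (Present) at 1564494_s_at, just inside the 2-fold rule. The remaining probe set, 200656_s_at, had 1064 and 1446 and was Absent in both (0.44). DNAJB11, a co-chaperone of BiP, had 5747 and 11714 at 223054_at (1.03), Present in both, and CANX, the membrane lectin calnexin, had 942 (Absent) and 2010 (Present) at 208853_s_at (1.09). The other 4 CANX probe sets were not Present and spread from -3.46 to 2.93. Of these calls only 200654_at of P4HB kept to 2-fold or more when the log2 ratios were centred.

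CALR, the soluble lectin calreticulin, was lower at 2 of its 3 probe sets. It had 609 (Present) and 42.3 (Absent) at 200935_at, and 407 (Present) and 19.5 (Absent) at 214315_x_at. With the sorted signal set at the lowest Present signal, these are 3.82-fold and 2.56-fold lower, which depends on the floor chosen. The remaining CALR probe set, 212953_x_at, was Absent in both samples at 1502 and 1369 (-0.13), so the gene's probe sets do not give 1 answer. When every dim signal was lifted to the level of a median Absent one, 200935_at came to a log2 ratio of -1.36 and was still called. With the same floor 214315_x_at came to -0.78 and was no longer called. DNAJB9, a co-chaperone that is known to rise in ER stress, had 826 (Present) and 475 (Absent) at 202842_s_at, a log2 ratio of -0.80. PDIA4, DNAJC3, SDF2L1, CRELD2 and MANF, which also belong to the folding machinery or its stress response, were never Present. Their log2 ratios ran from -4.32 at a PDIA4 probe set to 3.26 at a DNAJC3 probe set.

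The degradation and stress groups have no measured level on these arrays. HERPUD1, SEL1L and EDEM1 serve the removal of misfolded chains, and their 7 probe sets were Absent in both samples, with signals of 29.8 to 1121 in control cells and 65.7 to 887 in sorted cells. XBP1 and ATF4 encode transcription factors of the unfolded protein response and DDIT3 encodes CHOP, a factor tied to cell death in prolonged stress. XBP1 had 648 and 497 at 200670_at, ATF4 had 955 and 331 at 200779_at and DDIT3 had 1372 and 1613 at 209383_at, all Absent. Signals called Absent vary widely, since 33 of the 74 listed probe sets Absent in both samples differed by 2-fold or more (44.6%), as did 51.6% of such probe sets on the whole array. The values of SRP9, from 12.1 to 370, and of SEC61A1 or HERPUD1 are therefore no measured change.

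**Figure D5:**
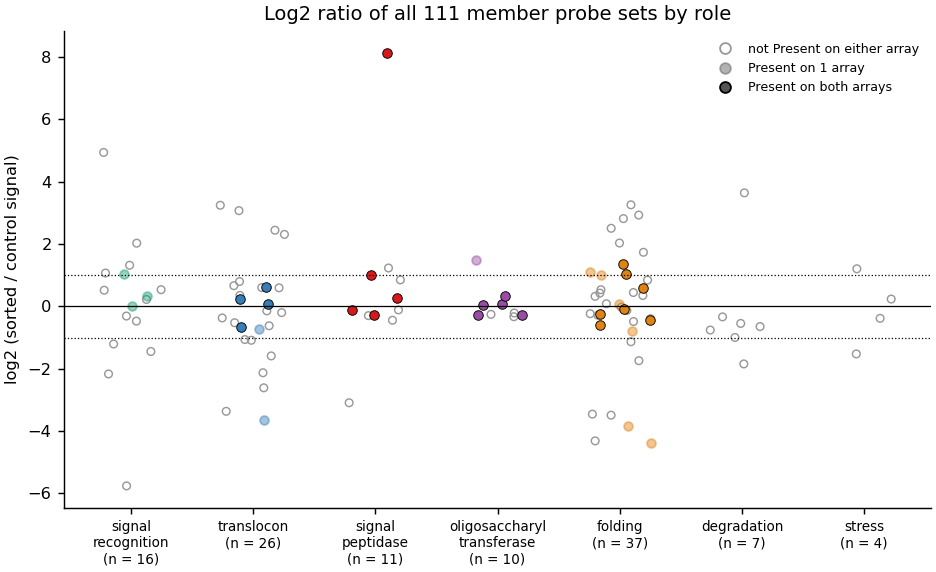
Log2 ratio of sorted over control signal (vertical axis) for all 111 probe sets by role, with dark-rimmed points Present on both arrays, pale points Present on 1 array and open points Present on neither. The dotted lines mark 2-fold. The points Present on both arrays lie between -0.68 and 1.37 apart from SPCS1 at 8.13, while the open points reach from -5.76 to 4.94.

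The 9 genes with an ERSE or ERSE-II in the rat promoter had the following calls. HSPA5 and both HSP90B1 probe sets Present on both arrays lay within 2-fold, CALR was lower at 2 probe sets, CANX was higher at 1 and DNAJB11 was higher at its only one. With centring the CANX and DNAJB11 log2 ratios became 0.98 and 0.92, under 2-fold. DNAJC3, CRELD2, XBP1 and HERPUD1 were never Present. Whether an ER stress response differed between the samples was not tested. SPCS1, CALR, SSR4 and STT3A had the largest log2 ratios in either direction among listed probe sets that passed the 2-fold rule. Of their rat promoters, that of Calr holds an ERSE, and those of Spcs1, Ssr4 and Stt3a hold neither element in this window. Whether the elements bear on these differences was not tested. A rat promoter bears on these values only where the probe set read a rat transcript, which was not tested.

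A list of 91 other ER genes, of which 89 had a probe set, served to place these members. Of its 208 probe sets 42 were Present on either array, 9 were higher (4.33%, against 1.61% of all probe sets) and 2 were lower (0.962%, against 1.77%). Of the 42 detected, 21.4% were higher and 4.76% lower, against 12.9% and 14.1% of all detected probe sets. The 25 Present on both arrays had a median log2 ratio of -0.081. SERP1, which stabilises proteins at the translocon, had 5066 and 13421 at 200971_s_at (1.41), Present in both samples. Also Present in both, UBXN4, an anchor for the degradation machinery, had 3447 and 8882 at 212007_at (1.37), and FKBP11, a peptidyl-prolyl isomerase, had 509 and 1537 at 228308_at (1.60). However, 2 further FKBP11 probe sets Present in both samples, 219117_s_at (0.35) and 219118_at (0.46), did not pass the rule. KDELR1, a receptor that returns chaperones to the ER, went in both directions. It had 995 (Absent) and 4519 (Present) at 200922_at (2.18) but 6907 (Present) and 2921 (Absent) at 1555575_a_at (-1.24). EMC6, of the membrane protein insertion complex, was higher (1.25), from Marginal to Present. Also higher, and Absent in control cells, were WFS1 (1.21), HERPUD2 (1.23) and UGGT2 (3.19). For UGGT2 the lower limit was 1.49 because its control signal was 45.8. The remaining probe sets of WFS1, HERPUD2 and UGGT2 were Absent in both samples, and those of UGGT2 ran from -1.53 to 2.39. KRTCAP2, a subunit of oligosaccharyl transferase, was lower, from 4496 (Present) to 1747 (Marginal), a log2 ratio of -1.36. None of these came near the difference at SPCS1.

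The label of rat myeloma cells was set against marker genes. SDC1, a surface marker of plasma cells, had 3390 and 4206 at 201287_s_at, Present in both samples. Its other probe set, 201286_at, had 378 and 167 and was Absent in both. In a list of 15 plasma cell and B cell genes, 9 of 85 probe sets were Present in control cells (10.6%) and 8 in sorted cells (9.41%), with summed signals of 67773 and 70952. PRDM1, a further gene of this list, had 1850 (Present) and 1113 (Marginal) at 217192_s_at, and 483 (Present) and 528 (Absent) at 228964_at. Its remaining probe set was Absent in both samples. The shares of the list lie near the 8.93% and 8.24% of all probe sets. CD38, TNFRSF17, JCHAIN, CD79A, CD79B, POU2AF1 and PAX5 were Absent in both samples, and IRF4 was never Present. Many of its probe sets name human immunoglobulin genes. The list as a whole thus does not set the cells apart as plasma cells. In a list of 15 endothelial cell genes, whose transcripts the human library could carry, 0 of 31 probe sets were Present in control cells and 2 in sorted cells, those of ICAM2 and ERG, with summed signals of 12994 and 13470. PECAM1, VWF and CDH5 were Absent in both samples. Among 8 fibroblast genes, 4 (13.3%) and 3 of 30 probe sets were Present, with summed signals of 14690 and 15558. The part of any of these cells in the values above was not tested.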

How the data were processed

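The authors deposited for each probe set an intensity (MAS5 signal, scaled per array to a mean of 500.0 after 2% had been trimmed at either end), a call and a detection p-value, which reached 0.0490 for Present. As software, Affymetrix Expression Console is named in the submitters' processing notes, without a version. The series' own table repeated these signals to within 0.00050%. The 62 Affymetrix control probe sets were left out. Genes were named through the array's annotation. Of the 111 listed probe sets 109 carried 1 gene symbol and 2 carried several.

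Log2 ratios were computed with Python 3.11.15, numpy 2.4.6 and pandas 2.3.3, and figures with matplotlib 3.10.9. Lower limits of a fold used the lowest Present signal of each array (148 for control cells, 159 for sorted cells). The calling and the motif search were tested on simulated data. The planted changes were larger than 2-fold and lay on probe sets Present on both arrays. Calls near 2-fold, or against an Absent signal, were thus not covered. With 1 array per group, their number limits the precision, and the array run cannot be told apart from the condition. The members and lists were chosen with earlier results of these data known. Named were all listed probe sets Present on either array, and the 10 other ER probe sets with the largest log2 ratio among those called. Alternatives were other scalings, a floor on dim signals and other probe set, fold and detection rules. Leaving out SPCS1 was added after the values were seen. Probe sequences were not used.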

Additional observations from a re-analysis of the deposited data

How the results depend on the processing

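No paired analysis was possible because each group has 1 array, and for the same reason no array could be left out. The cause of changes in the counts was not tested. SPCS1 kept a log2 ratio of 7.88 to 8.13 under quantile normalization, centring, the series value table and a floor on dim signals. The count of 8 listed probe sets higher in sorted cells became 5 with quantile normalization, 3 with centring, 4 with gene-specific probe sets, 1 with a 4-fold rule, which was SPCS1, and 3 where a Present call had to stand against an Absent one. The count of 3 lower was between 2 and 4 under these and the other rules, except that 25 were higher and 21 lower when detection was ignored. The median of the probe sets Present on both arrays lay between -0.073 and 0.26. It was 0.045 without SPCS1. Of 32 further listed probe sets, 2 moved by more than 0.33 with the floor on dim signals, and none did so with quantile normalization, centring or the value table. Levels called Absent are limited by signal over background.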

Other observations

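Antibody chains are the main cargo of the ER in plasma cells, and their human probe sets were read as well. IGHG1, a heavy chain constant region, had 2586 and 2618 at 217369_at, Present in both samples, with a log2 ratio of 0.018. Its other 4 probe sets that name this gene alone were Absent in both samples. One of them, 216892_at, was brighter than 217369_at, at 6139 and 3828. Whether these cells make antibody chains, or whether the human probe sets read their rat transcripts, was not tested. IGKC, the kappa light chain constant region, had 497 (Absent) and 1697 (Present) at 214669_x_at, a log2 ratio of 1.77, and 1213 (Absent) and 1911 (Present) at 216207_x_at (0.66). At 215217_at the call went the other way, with 755 (Present) and 1715 (Absent). The remaining probe sets that name IGKC alone were Absent in both samples, with log2 ratios from -0.24 to 0.78. These values were looked up after the ER genes had been described, and have no replicate.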
